A study of Homo sapiens with 4 samples.

Results

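A set of 37 hepatocyte genes was followed in the liver cancer line HCCLM3. They encode plasma proteins, liver enzymes, a hepatocyte surface receptor and transcription factors of the liver, together with the membrane protein TM4SF5. The set was given as a list of symbols. Each gene was read from its brightest single-gene probe set, by the mean of the 4 log2 signals. Of 19775 genes measured in this way, 34 belong to the set. VTN (vitronectin) was listed only on 2 probe sets shared with SEBOX, and HNF4A and NR1H4 had no single-gene probe set in the annotation used here. These 3 genes were not analysed here.

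There was 1 array per group, on the Affymetrix Human U133 Plus 2.0 design, which reads cRNA primed from the poly-A tail. Cells were sorted magnetically by EpCAM, an epithelial adhesion molecule, and all were kept in medium with fetal bovine serum and treated for 4 days. EpCAM-negative cells received 100 nM of miR-NC mimics (the NC mimic, a negative control) or 100 nM of miR-429 mimics. EpCAM-positive cells received 40 µM of Antagomir-NC (the NC antagomir) or 40 µM of Antagomir-429. Mimics went in with the transfection reagent INTERFERin, and antagomirs, which carry cholesterol, without serum and with no such reagent named. Thus the sorted fraction and the mode of delivery cannot be told apart between the control arrays. All groups are fractions of 1 established line.

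The sequence of the agent that distinguishes the treated groups is shown with those of the microRNAs that share its seed, bases 2 to 8, in capitals. miR-429 lies on chromosome 1 at chr1:1169055-1169076 on the + strand (RefSeq, GRCh38.p14). A mimic supplies this strand and an antagomir is complementary to it. The annotated transcripts of the 37 genes were not searched for sites here.
hsa-miR-429: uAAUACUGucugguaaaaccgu
hsa-miR-200b-3p: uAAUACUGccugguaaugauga
hsa-miR-200c-3p: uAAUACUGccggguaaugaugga

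The mature hepatocyte secretes most plasma proteins, detoxifies ammonia through the urea cycle, releases glucose by gluconeogenesis and oxidises drugs with cytochrome P450 enzymes. This programme is held by a network of factors that includes HNF4A, the FOXA proteins, C/EBPα (encoded by CEBPA), LRH-1 (encoded by NR5A2) and HNF6 (encoded by ONECUT1). Liver cancer lines keep differing parts of it, and its loss is commonly described as dedifferentiation.

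Signals are on the scale of the deposited values, on which each array has a trimmed mean of 500.1, and the median signal of the 4 arrays lay between 62.7 and 67.1. The mean log2 signal of each of the 54613 non-control probe sets was taken, and the median of these means, 5.73 (a signal of 52.9), is called the floor. The 75th percentile lies at a signal of 265.6. A place above or below these levels describes a probe set's brightness, and signals of different genes were not compared with each other. The ratio of 3′ to 5′ probe sets of actin, a sign of RNA quality, was between 2.63 (miR-429 mimic) and 3.41 (NC mimic), and that of GAPDH between 0.90 and 0.92. With 1 array per group no difference has a replicate check and no test was possible, so the number of arrays limits the precision throughout. A difference is given as the log2 ratio of 2 arrays, and at least 2-fold is the size at which genes were counted. Where 1 of the 2 arrays lies under the floor, the fold is taken against the floor and given as "at least". The counts use the measured ratios, also those to a signal under the floor, so a gene can be counted whose bound is under 2-fold.

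Many of the measured hepatocyte genes had signals no higher than those of a typical probe set. By the mean over the arrays, 17 of 34 members were at or above the floor, against 66.6% of all genes. On all 4 arrays the number was 11 (32.4%, against 58.1% of all genes): the carriers RBP4 and AHSG, the apolipoproteins APOA1, APOA2 and APOE, the enzymes CPS1, CYP3A4, PCK1 and TAT, and the factors FOXA1 and CEBPA. The other 6 above the floor by their mean, AMBP, APOC3, F2, CYP2E1, MLXIPL and TM4SF5, were under it on at least 1 array. At or above the 75th percentile were 4 members (11.8%, against 41.1% of all genes): CPS1, RBP4, PCK1 and CEBPA. The labels name HCCLM3 a liver cancer line. Its albumin, fibrinogen and asialoglycoprotein receptor genes were under the floor by their means, while a few enzyme and factor genes were bright. The members nearest to the floor were SERPINA1 (mean signal 51.0) and APOH (49.5) below it and MLXIPL (57.7) and APOC3 (59.6) above it.

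**Figure D1:**
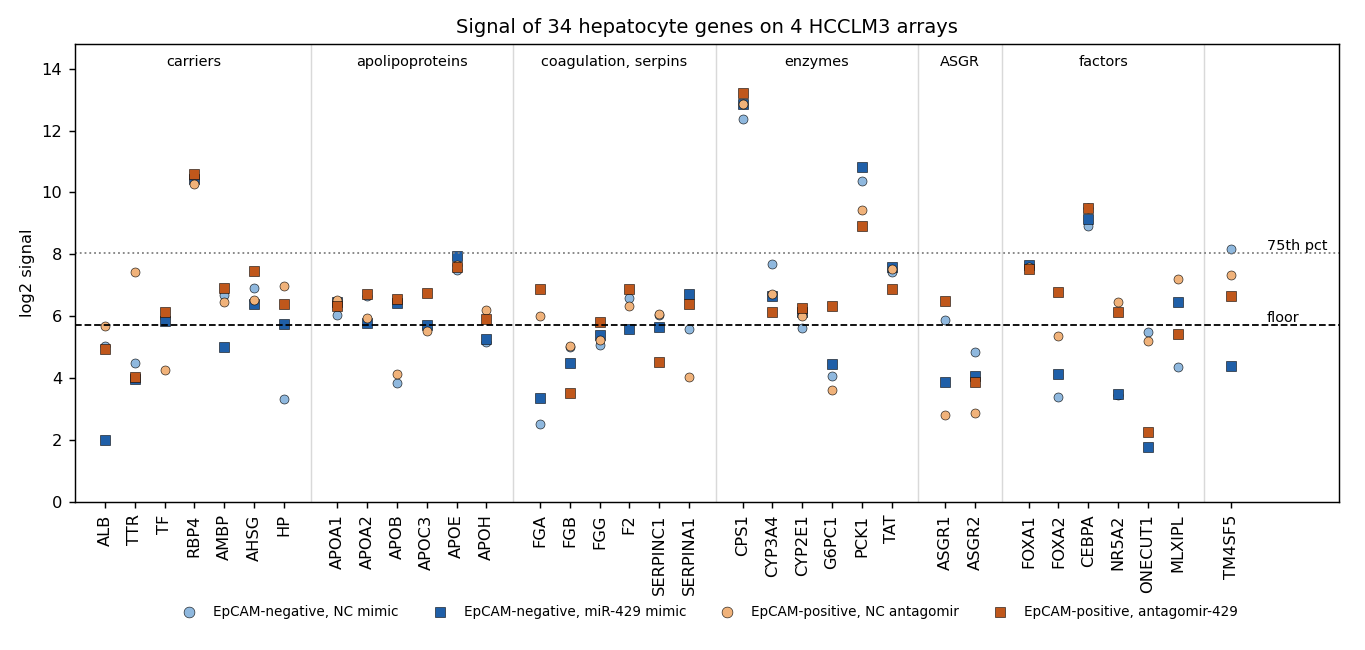
Log2 signal of the 34 measured members, grouped by role, with 1 point for each of the 4 arrays; the dashed line is the floor (5.73) and the dotted line the 75th percentile of all probe sets (8.05). CPS1, RBP4, PCK1 and CEBPA lie above the dotted line on every array, and the points of most other members straddle the floor.

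Among the plasma carriers, RBP4, the serum carrier of retinol, was bright and even by the probe set used here. Its signals there were 1387 with the NC mimic, 1388 with the miR-429 mimic, 1233 with the NC antagomir and 1565 with antagomir-429. A second RBP4 probe set lay under the floor on every array, with 17, 15, 5 and 4. The log2 ratios of the brighter probe set were 0.00 for the mimic and 0.34 for the antagomir. The scatter of single genes was taken as a robust SD, from the median absolute deviation of the log2 ratios in each of 4 equal bins of genes by signal, and for the antagomir it was 0.26 in the bin of RBP4. AHSG, the calcification inhibitor fetuin-A, had signals of 121, 83, 91 and 176 in the same order of arrays. AMBP, the precursor of α1-microglobulin and bikunin, had signals of 101, 32, 88 and 121, and only the miR-429 mimic array lay under the floor. ALB, the albumin gene and the most familiar hepatocyte marker, was under the floor on every array, with signals of 33, 4, 51 and 31. TF, the iron carrier transferrin, had 62, 57, 19 and 71, and HP, the haemoglobin scavenger haptoglobin, had 10, 54, 126 and 84. TTR, the thyroxine carrier transthyretin, had 174 with the NC antagomir and between 16 and 23 on the other 3 arrays.

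The apolipoproteins package lipid for transport in blood. APOE, a ligand of lipoprotein receptors, had signals of 179 and 246 on the EpCAM-negative arrays (NC mimic, then miR-429 mimic) and 201 and 192 on the EpCAM-positive arrays (NC antagomir, then antagomir-429). APOA1, the main protein of HDL, had 66, 87, 92 and 81. Both genes were read from probe sets whose _x_at suffix marks probes that can also bind related sequences. The other probe sets of both genes were under the floor by their means. APOA2, another HDL protein, had 100, 55, 61 and 106, and APOC3, an inhibitor of lipoprotein lipase, had 49, 52, 46 and 107. APOB, the structural protein of VLDL and LDL, had 14 and 17 on the control arrays and 87 and 94 on the treated arrays, by a probe set under the floor in its mean. Its other probe set, with signals of 53, 32, 7 and 43, was higher with the antagomir but lower with the mimic. APOH, which binds phospholipids, had 35, 38, 73 and 61.

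Of the coagulation proteins and serpins, 1 of 6 was at or above the floor by its mean. F2, the prothrombin gene, had signals of 96, 48, 80 and 118. The fibrinogen chain genes FGB and FGG had 11 to 33 and 34 to 56. FGA, which encodes the third chain, had 6 and 10 in EpCAM-negative cells and 64 and 119 in EpCAM-positive cells by the probe set used here. A second FGA probe set of nearly the same brightness gave 8, 78, 91 and 7, which does not separate the fractions. SERPINC1, the gene of antithrombin, had 66, 51, 67 and 23. SERPINA1, the gene of α1-antitrypsin, had 47, 106, 16 and 83. A second SERPINA1 probe set of nearly the same brightness gave 54, 22, 69 and 64, which is not higher on either treated array.

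Of the liver enzymes, 5 of 6 were at or above the floor. CPS1, the mitochondrial enzyme that feeds ammonia into the urea cycle, was the brightest by its place among all probe sets, at percentile 96.9. Its signals were 5242 with the NC mimic, 7466 with the miR-429 mimic, 7451 with the NC antagomir and 9497 with antagomir-429. PCK1, the cytosolic enzyme that commits oxaloacetate to gluconeogenesis, had 1325 and 1806 in EpCAM-negative cells and 688 and 477 in EpCAM-positive cells, so both EpCAM-positive arrays lay below both EpCAM-negative arrays. Such an order was common: it held for 18.9% of all genes at or above the floor and 17.5% of those at or above the 75th percentile. TAT, which starts tyrosine breakdown, had 173, 193, 187 and 117 by an _x_at probe set, while its other 2 probe sets were under the floor. CYP2E1, an ethanol-oxidising P450, had 49, 70, 64 and 78. G6PC1, which releases free glucose in the last step of gluconeogenesis, had 17, 22 and 12 and then 81 with antagomir-429.

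CYP3A4, the major drug-metabolising P450 of adult liver, was read by 4 probe sets above the floor that did not move together. The brightest had 208, 101, 106 and 70, and the next 116, 67, 120 and 136. The third had 89, 58, 51 and 63. The dimmest of the 4 had 24 and 29 in EpCAM-negative cells and 94 and 192 in EpCAM-positive cells. The brighter pair carry the _x_at suffix, and the CYP3A genes are close relatives, so the gene behind these signals is uncertain. CPS1 was the only other member with more than 1 probe set above the floor. There the second probe set, at 2586, 4242, 3690 and 4580, kept the order of the control and treated arrays within each fraction.

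**Figure D2:**
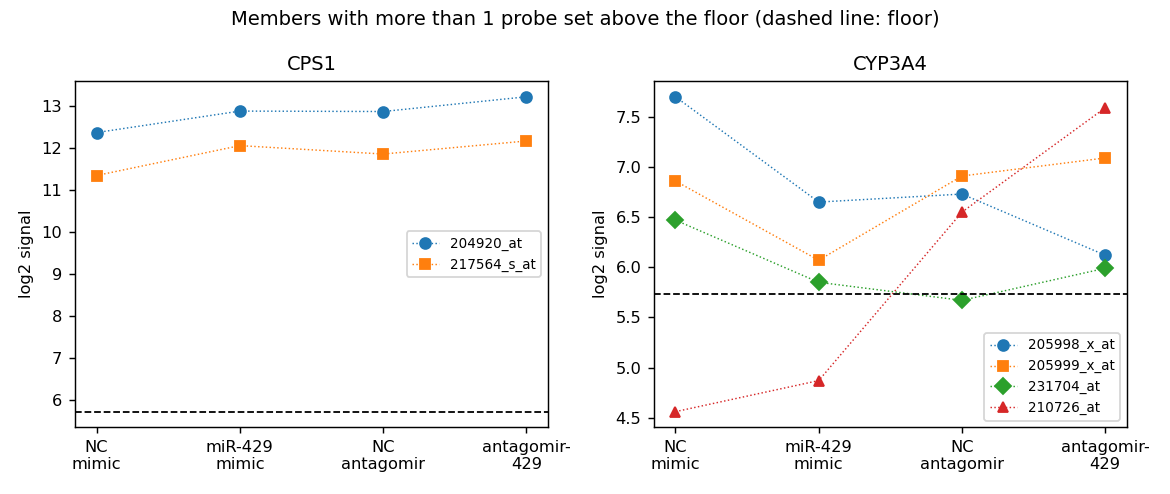
Log2 signal of each probe set above the floor for CPS1 (2 probe sets) and CYP3A4 (4 probe sets) on the 4 arrays; dotted lines join the values of 1 probe set and the dashed line is the floor. The CPS1 probe sets run in parallel, while the CYP3A4 probe sets cross, with one at 24 on the NC mimic array and 192 with antagomir-429.

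The asialoglycoprotein receptor, which clears desialylated glycoproteins and is a surface marker of hepatocytes, had both subunits under the floor by their means. ASGR1 had signals of 58, 15, 7 and 89, and ASGR2 had 29, 17, 7 and 15.

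Among the transcription factors, CEBPA and FOXA1 were above the floor on every array. CEBPA, a factor of hepatocyte differentiation and metabolism, had 486 and 560 in EpCAM-negative cells and 726 and 721 in EpCAM-positive cells. Both EpCAM-positive arrays lay above the others for 17.2% of all genes at or above the floor and 19.4% of those at or above the 75th percentile. CEBPA and PCK1 were 1 member of 17 in each direction, no larger a share than among all genes at or above the floor. Among the members at or above the 75th percentile they were 1 of 4 in each direction, too few genes for a share. FOXA1, a pioneer factor that opens chromatin in endodermal tissues, was even by the probe set used here, with 191, 202, 194 and 182. A second FOXA1 probe set was under the floor by its mean, with 49, 56, 3 and 32. MLXIPL, which encodes the glucose-responsive factor ChREBP, had 20, 87, 146 and 43. FOXA2 had 10, 18, 41 and 110, NR5A2 had 11, 11, 88 and 69, and ONECUT1 had 45, 3, 37 and 5. TM4SF5, a transmembrane protein of the L6 family that is reported in liver cancer, had 288 with the NC mimic, 21 with the miR-429 mimic, 161 with the NC antagomir and 99 with antagomir-429. Its only low value was that of the miR-429 mimic array.

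More members reached the floor on the EpCAM-positive arrays. The count was 17 of 34 on each EpCAM-negative array, 22 with the NC antagomir and 27 with antagomir-429, while over all genes the share ran the other way by a small amount, from 70.8% and 70.6% to 69.5% and 69.4%. APOH, FGA and NR5A2 were at or above the floor on both EpCAM-positive arrays and on neither EpCAM-negative array, 8.8% of measured members against 1.06% of all genes. The reverse pattern was found in 0 members and 1.45% of all genes. A gene above the floor on all 4 arrays, as 58.1% of all genes and 32.4% of members were, cannot show either pattern. The share among genes as dim as the members was not computed, so these shares are not like for like. All 3 members were dim, with no signal above 119, and a second probe set of each lacked the pattern. It had 14, 18, 6 and 70 for APOH and 8, 10, 71 and 8 for NR5A2, and the values of FGA are given above. With bulk RNA, fewer cells expressing a gene and less RNA per cell cannot be told apart.

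With the miR-429 mimic in EpCAM-negative cells, TM4SF5 and AMBP were lower, and of the 4 bright members CPS1 had a ratio beyond the scatter of its bin. TM4SF5 was at least 5.5-fold lower and AMBP at least 1.9-fold lower, each with the miR-429 mimic array under the floor. The brightest CYP3A4 probe set had a log2 ratio of -1.05 and MLXIPL was at least 1.7-fold higher. By measured ratios 1 of the 17 members above the floor passed 2-fold upwards and 3 downwards, and 0 and 1 (CYP3A4) where both arrays reached the floor. By measured ratios 5.25% and 3.76% of the 13180 genes above the floor were higher and lower. All 4 lie among the 13 members between the floor and the 75th percentile, where 10.8% of genes were higher and 9.11% lower. The median log2 ratio of the 17 was 0.08, against 0.00 for all genes above the floor, with 11 above 0 and 6 below. The robust SD of single genes was 0.82 in the dimmest of the 4 signal bins, which holds 10 of the 17. F2 had -0.99 and APOA2 -0.86 in that bin.

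Of the bright members CPS1 had a log2 ratio of 0.51 with the mimic, PCK1 0.45, CEBPA 0.20 and RBP4 0.00. The second CPS1 probe set gave 0.71. The robust SD of genes of like signal was 0.36 for CPS1 and 0.46 for the other 3. The mimic ratio also varied with the span of genes on the genome: among brighter genes its median was 0.27 in the fifth with the longest span, which holds CPS1, and -0.24 in the fifth with the shortest, which holds PCK1 and CEBPA. The part of gene span in these values was not tested. Against the EpCAM-positive NC antagomir array in place of the NC mimic, a control chosen after seeing the data, CPS1 had 0.00, CEBPA -0.37, CYP3A4 -0.08 and MLXIPL, with its sign turned, -0.74. TM4SF5 had -2.94 and AMBP -1.45 there, so these were lower than on either control array.

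With antagomir-429 in EpCAM-positive cells, APOC3 was at least 2.0-fold higher and MLXIPL at least 2.8-fold lower, each against an array under the floor. APOC3 was above the floor by its mean only through the antagomir-429 array, so the filter itself favoured this direction. Its other probe set (10, 16, 19 and 30) was under the floor on every array. By measured ratios these were 1 of 17 in each direction, and 0 and 0 where both arrays reached the floor. Over all genes, 3.72% of genes above the floor were higher and 3.53% lower. Among genes between the floor and the 75th percentile the shares were 9.23% and 8.91%. The median log2 ratio of the 17 was -0.01, against 0.01 for all genes above the floor. Next in size were AHSG (0.95), APOA2 (0.79), TM4SF5 (-0.70), TAT (-0.67) and CYP3A4 (-0.61), of which AHSG and TAT exceeded the robust SD of their bins (0.79 and 0.41). Neither value held over probe sets: the median over a gene's probe sets was -0.86 for AHSG, with its sign turned, and 0.04 for TAT.

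The bright members gave the more precise values in this comparison, since the robust SD was 0.15 in the brightest bin and 0.26 in the third. CPS1 had 0.35, and 0.31 by its second probe set. PCK1 had -0.53, RBP4 0.34 and CEBPA -0.01. The medians of the span bins lay between -0.02 and 0.04 here. CPS1 was thus higher in the treated array of each pair, although the treatments were meant to act in opposite directions. PCK1 was higher with the mimic and lower with the antagomir, as was MLXIPL at dim signals. The PCK1 ratio with the mimic (0.45) was within the robust SD of its bin (0.46), and MLXIPL turned sign with the other control. APOA1, APOE, TAT, FOXA1 and CEBPA had the same signs as PCK1. CYP3A4 and TM4SF5 were lower in both pairs, and APOC3 and CYP2E1 higher in both. AMBP, AHSG, APOA2 and F2 were lower with the mimic (-1.67, -0.54, -0.86 and -0.99) and higher with the antagomir (0.47, 0.95, 0.79 and 0.55). These 4 are dim. The share of all genes with opposite signs in the 2 pairs was not computed, so opposite signs cannot be read as a result about the members. The second AHSG probe set (84, 29, 42 and 7) was lower with the antagomir too, at -2.66. The second APOA2 probe set (25, 36, 5 and 41) was higher with the mimic, and that of AMBP (11, 6, 6 and 7) lay under the floor throughout.

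**Figure D3:**
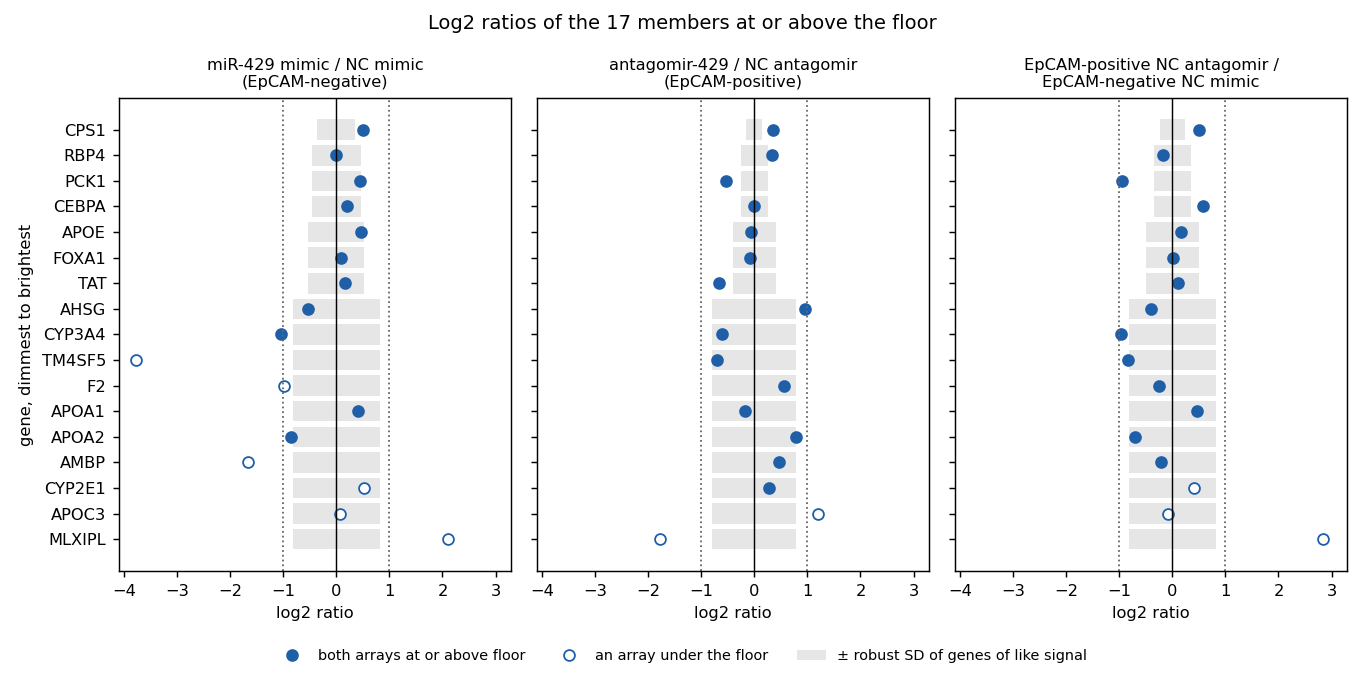
Log2 ratio of the 17 members at or above the floor in each of the 3 comparisons, ordered from dimmest (bottom) to brightest (top); grey bars span 1 robust SD of genes of like signal to each side of 0, dotted lines mark 2-fold and open points have an array under the floor. TM4SF5 (-3.78 as measured) stands apart with the mimic, and the bars narrow towards CPS1.

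Between the control arrays, PCK1 was lower and CEBPA and CPS1 were higher in EpCAM-positive cells given the NC antagomir than in EpCAM-negative cells given the NC mimic. PCK1 had a log2 ratio of -0.95, or 1.93-fold, CEBPA had 0.58 and CPS1 0.51 by both of its probe sets. The robust SD of genes of like signal was 0.35 for PCK1 and CEBPA and 0.24 for CPS1. The span bins had medians of -0.10 for PCK1 and CEBPA and 0.12 for CPS1. EPCAM itself, the sorted protein's gene, had 1106 and 1235 on these arrays (0.16), so its mRNA barely separated the control fractions. It had 3838 with the miR-429 mimic, 3.47-fold that of its control, and 913 with antagomir-429 (-0.44). The values for this comparison use the same control arrays as the others and are not independent of them.

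At 2-fold by measured ratios, 1 of 17 members was higher between the control arrays, MLXIPL at least 2.8-fold, and 0 were lower, where 3.62% and 4.70% of genes above the floor were. Among genes between the floor and the 75th percentile the shares were 8.26% and 11.1%. The median log2 ratio was -0.09, against -0.02 for all genes above the floor. CYP3A4 had -0.97, TM4SF5 -0.84 and APOA2 -0.71, within or near the scatter of 0.82 in their bin, while FOXA1 had 0.02 and RBP4 -0.17. By the median over a gene's probe sets, RBP4 had -1.0 and CYP3A4 0.08. For PCK1 both EpCAM-positive arrays lay below both EpCAM-negative arrays, so every pair that crosses the fractions must have the same direction. Its miR-429 mimic array was 1.39 log2 units above the NC antagomir array, and the antagomir-429 array 1.47 units below the NC mimic array. These pairs also mix treatment with fraction and are no further check.

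**Figure D4:**
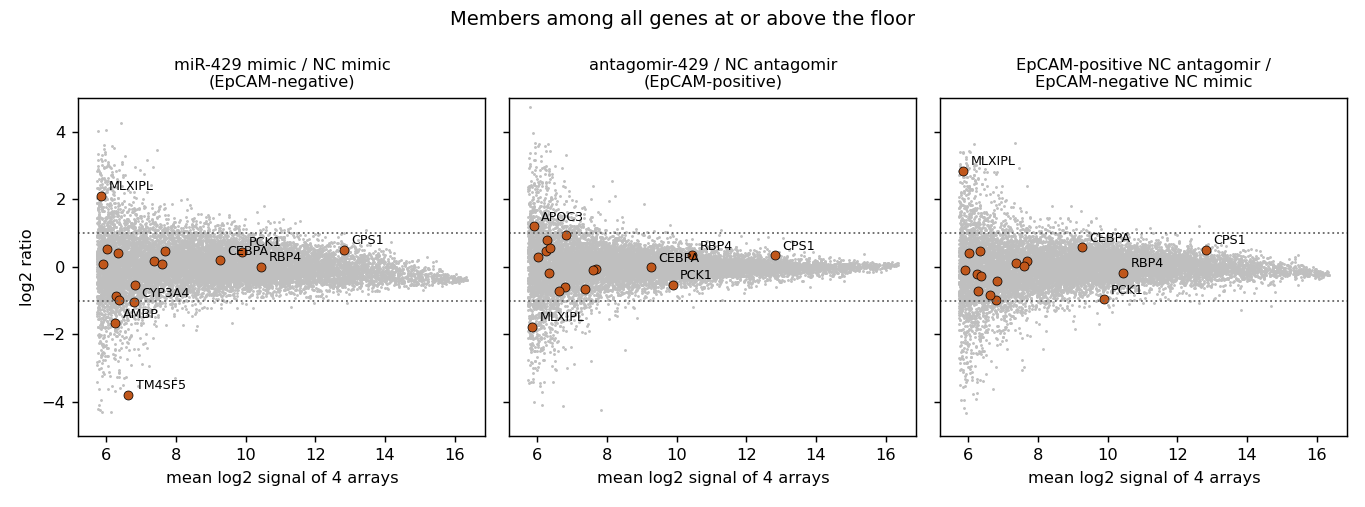
Log2 ratio against mean log2 signal for all 13180 genes at or above the floor (grey) and the 17 members (orange) in the 3 comparisons; dotted lines mark 2-fold. Members past 2-fold lie at the dim end, where grey points scatter widely, and PCK1 lies at -0.95 between the control arrays.

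Further hepatocyte genes, from lists drawn up with the members, showed the same uneven picture. Of 49 measured plasma protein genes outside the members, 18 (36.7%) were at or above the floor and 7 above the 75th percentile. The 4 highest by place were IGFBP1, C3, F12 and CFB. IGFBP1, an insulin-repressed binding protein of insulin-like growth factors, had signals of 41079 and 40984 in EpCAM-negative cells and 18580 and 15097 in EpCAM-positive cells, a log2 ratio of -1.14 between the control arrays. C3, the central complement protein, had 1830, 4011, 1487 and 2872 and was higher in both treated arrays (1.13 and 0.95). F12, a coagulation factor, had 2408, 2077, 1565 and 1207, and CFB, a complement protease, had 704, 1244, 715 and 682. APOC2, SERPINA5 and APOA5 were dim and were at least 2.6-, 2.0- and 2.9-fold higher on the EpCAM-positive control array, and HRG at least 1.2-fold. HRG was also at least 1.7-fold higher when the miR-429 mimic was given. APOC2, SERPINA5 and APOA5 were under the floor on both EpCAM-negative arrays. They were above it by their means only through the EpCAM-positive arrays, so the filter itself favoured this direction for them. Of the 18, by measured ratios, 2 passed 2-fold upwards with the mimic and 0 downwards. With the antagomir 0 passed in either direction, and 4 were higher and 1 lower between the control arrays. Over all genes above the floor, 5.25% were higher and 3.76% lower with the mimic. The shares were 3.72% and 3.53% with the antagomir and 3.62% and 4.7% between the control arrays. Among genes between the floor and the 75th percentile, 8.26% were higher and 11.1% lower between the control arrays. The same shares apply to the enzymes and factors below.

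Of 46 measured enzymes and transporters outside the members, 18 (39.1%) were at or above the floor and 7 above the 75th percentile. The 4 highest by place were ASS1, PYGL, ASL and HPD. ASS1 and ASL, which carry out the next cytosolic steps of the urea cycle, had signals from 69658 to 91810 and from 3764 to 4893. NAGS, which makes the activator of CPS1, had 332, 274, 197 and 135. OTC and ARG1, the remaining urea cycle enzymes, were under the floor on every array, with 3 to 18 and 17 to 49. NAGS, OTC and ARG1 were singled out after their values were seen. HPD, an enzyme of tyrosine breakdown, had 1951, 1316, 1898 and 1164, and PYGL, liver glycogen phosphorylase, had 3821, 5229, 4286 and 4540. By measured ratios 0 of 18 passed 2-fold upwards with the mimic and 1 downwards (BHMT, at least 1.8-fold), with the antagomir 0 were higher and 1 lower (CYP8B1, at least 1.6-fold), and between the control arrays 0 were higher and 2 lower (BHMT, at least 1.8-fold, and the bile acid transporter SLCO1B3, -1.30).

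Of 18 measured transcription factors outside the members, 14 (77.8%) were at or above the floor and 8 above the 75th percentile, beside 66.6% and 41.1% of all genes. Many of them are not confined to liver. CEBPB and CEBPD, relatives of CEBPA that respond to inflammation, had 16606 to 26709 and 5250 to 7863. RXRA, the shared partner of nuclear receptors, had 2863 to 4045, and ESRRA 2561 to 3394. By measured ratios 3 passed 2-fold upwards with the mimic and 0 downwards: PPARA, the receptor that drives fatty acid oxidation (signals of 198 and 76, 1.38), CREB3L3 (at least 2.0-fold) and the coactivator PPARGC1A (at least 1.9-fold). With the antagomir 3 were higher, namely GATA4 and PPARGC1A (each at least 1.5-fold) and NR1I3 (at least 1.3-fold), and PROX1 was at least 1.8-fold lower. Between the control arrays CREB3L3 was at least 1.9-fold higher and GATA4 and NR1I3 each at least 1.6-fold lower. All factors past 2-fold lie between the floor and the 75th percentile. Of all genes there, 10.8% were higher and 9.11% lower with the mimic. The shares there were 9.23% and 8.91% with the antagomir and 8.26% and 11.1% between the control arrays.

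**Figure D5:**
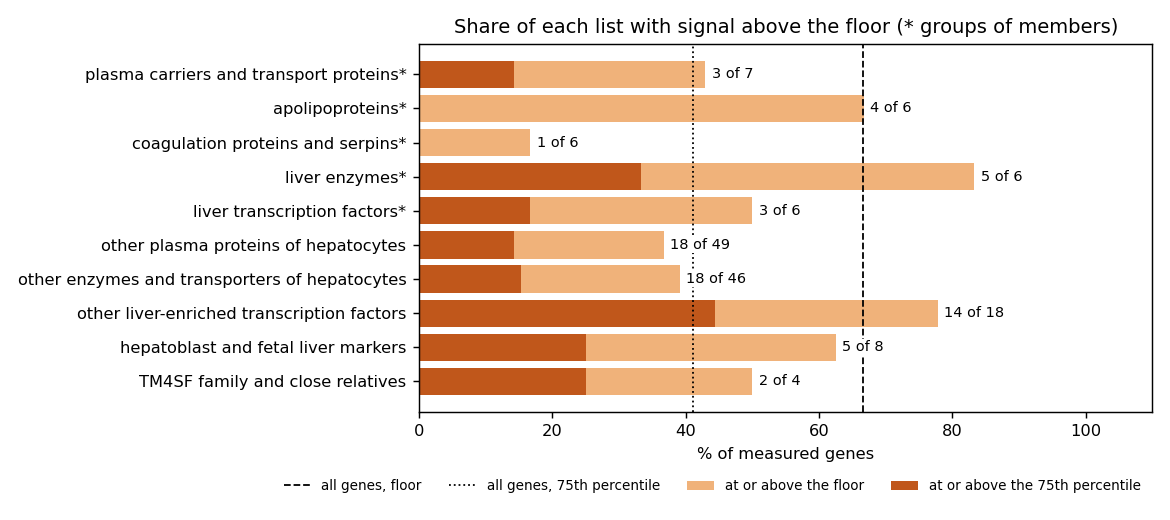
Percent of measured genes at or above the floor (light bars) and at or above the 75th percentile (dark bars) in each list of more than 2 measured genes, with counts at the end of each bar; the dashed and dotted lines are the shares over all genes (66.6% and 41.1%). Coagulation proteins and serpins have the shortest bar, 1 of 6, and liver enzymes the longest, 5 of 6.

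The promoters of the members were searched for short motifs of liver factors, since several of these factors are members too. RefSeq windows from 250 bases before to 50 after the transcript start (GRCh38.p14) were given for 26 of the 37 genes and 27305 genes in all. Exact matches on either strand were counted. The FOXA motif TGTTTGC was in the windows of 8 members (AHSG, AMBP, CYP2E1, FGA, FOXA1, G6PC1, SERPINA1 and VTN) and in 4.76% of all genes, and TGTTTAC, which differs in 1 letter, in those of APOA2 and NR5A2 and 4.19% of all genes. The HNF4 motif CAAAGTCCA was found only in AHSG (0.472% of all genes), and the C/EBP motif TTGCAAC only in FGA (2.23%). The C/EBP palindrome TTGCGCAA (0.172% of all genes) and the HNF1 palindrome (2 genes in all) were in 0 members. TGTTTGC and TTGCAAC can share bases, but do not in the windows printed here. Of the members with the FOXA motif TGTTTGC and a measurement, AHSG, AMBP, CYP2E1 and FOXA1 were above the floor by their means and FGA, G6PC1 and SERPINA1 below it, so the motif was on both sides.

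The windows of AHSG and FGA are shown because each holds 2 kinds of motif while their genes lay on opposite sides of the floor by the mean of the 4 arrays. On the EpCAM-positive arrays both genes were above it by the probe sets used here. Their second probe sets had 42 and 7 for AHSG and 91 and 7 for FGA on those arrays. Capitals mark the motifs in either orientation. AHSG lies at chr3:186612810-186613109 on the + strand and FGA at chr4:154590693-154590992 on the - strand, and both are written 5′ to 3′ along the gene. A match is only a run of letters and was not tested for binding.
AHSG: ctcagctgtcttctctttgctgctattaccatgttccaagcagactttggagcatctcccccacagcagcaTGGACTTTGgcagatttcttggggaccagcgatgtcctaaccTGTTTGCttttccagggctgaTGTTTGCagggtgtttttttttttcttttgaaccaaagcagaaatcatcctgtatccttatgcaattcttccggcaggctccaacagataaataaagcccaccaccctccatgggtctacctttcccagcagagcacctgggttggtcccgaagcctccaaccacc
FGA: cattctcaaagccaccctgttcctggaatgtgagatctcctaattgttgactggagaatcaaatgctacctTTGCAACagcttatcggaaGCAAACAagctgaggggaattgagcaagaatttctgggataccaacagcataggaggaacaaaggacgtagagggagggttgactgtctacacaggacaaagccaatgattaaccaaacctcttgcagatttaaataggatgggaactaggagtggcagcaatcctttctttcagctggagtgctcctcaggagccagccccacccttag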

How the data were processed

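Expression was measured on 4 arrays, 1 per group, so no p-value, standard error or set test was computed. The deposited values are log2 signals, and the submitters' processing notes name MAS5; no version or target level is given there. From the values, the authors had scaled the arrays to a common trimmed mean, and no further scaling was applied. Of 54675 probe sets, 62 controls were left out, 41091 had 1 gene symbol in the platform annotation and 1801 had several. Symbols were checked through Entrez identifiers against RefSeq (GRCh38.p14): 41037 matched and 0 changed. The members and lists were chosen with earlier results of these data known. All members were described. From other lists, the 4 brightest genes and those past 2-fold above the floor (up to 4 per list and comparison) could be named. Of cell type markers only some of these are named. Cell type markers under the floor were named after their values were seen. Alternatives covered scaling, an offset of 3.5 signal units before log2, the probe set per gene and the filter. The counting code was tested on simulated data. Python 3.11.15, pandas 2.3.3 and numpy 2.4.6 were used.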

Additional observations from a re-analysis of the deposited data

How the results depend on the processing

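No paired analysis was possible because each group holds 1 array; leaving out an array was not possible for the same reason. A member's log2 ratio was taken as moved when it shifted by more than the robust SD of its signal bin, and a median when it shifted by more than 0.1. Of 204 member values under planned scaling, offset and probe set settings, 188 stayed within that range and 16 moved, all with the median over probe sets. There 3 of 17 moved with the mimic, 7 with the antagomir and 6 between the control arrays. A member with 1 probe set cannot move under that setting. Median centring shifts all genes of a comparison alike, by less than the smallest robust SD (0.15), so it could move none. The total of 188 is therefore no measure of stability. With the control array of the other fraction, added after seeing the data, MLXIPL turned sign with the mimic (-0.74) and the antagomir (1.06). The 17 members above the floor became 10 on all arrays against their own medians, 4 at the 75th percentile, 11 with the median over probe sets and 9 with plain _at probe sets, which 24 members have.

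With the mimic, 1 higher and 3 lower became 0 and 0 with the stricter filter, 4 and 6 with none, and 0 and 1 where the floor was reached on both or on all 4 arrays. The median of 0.08 became -0.03 with median centring (all genes -0.11), -0.06 over probe sets, 0.33 with the stricter filter and -0.07 with the other control. With the antagomir, 1 and 1 became 0 and 0 with the stricter filter or the floor on both or all 4 arrays, 7 and 5 with no filter, and 2 and 3 with the other control. Its median of -0.01 became 0.17 with the stricter filter, 0.13 with none, 0.33 without _x_at probe sets and 0.25 with the other control. Between the control arrays, 1 higher became 0 with the stricter filter or the floor on both or all 4 arrays and 7 with none, and 0 lower became 2 over probe sets and 4 with no filter. Its median of -0.09 became -0.70 over probe sets, 0.17 with the stricter filter, and 0.02 with no filter or the floor on all 4 arrays. Most counts at 2-fold include an array under the floor. With no filter, the added calls come from members whose mean is under it. The share over all genes was not computed for these settings, so shifts in the counts cannot be read as results about the members. Background was not measured here, since detection calls were not used.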

Other observations

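Genes of fetal liver and of other cell types were read on the same arrays. AFP, the fetal counterpart of albumin, had signals of 91, 99, 119 and 95, just above the floor on every array, and DLK1, a hepatoblast membrane protein, had 80, 101, 129 and 74. PEG10, an imprinted gene of fetal tissues, was brighter, with 393, 564, 629 and 683. EPCAM, which hepatoblasts also carry, was the gene of this list past 2-fold, with 1106, 3838, 1235 and 913 (3.47-fold with the mimic). GPC3, an oncofetal glypican of liver cancer, was under the floor by its mean (68, 37, 13 and 40). In the family of TM4SF5, the close relative TM4SF1 was bright and even, at 32960, 37899, 28080 and 29195, while TM4SF4 was under the floor on every array, with 14 to 23. TM4SF20 had 99, 129, 137 and 111. Neither TM4SF1 nor TM4SF20 passed 2-fold in a comparison. DLK1, GPC3 and TM4SF4 were singled out after their values were seen.

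Of the bile duct markers 5 of 9 (55.6%) were above the floor, beside 66.6% of all genes. Among them were the keratin KRT7 (15025 to 17438) and the duct factor SOX9 (803 to 1503). The summed signal of those above the floor lay between 49265 and 58095. The keratin KRT19 (4 to 12), SPP1 (2 to 32), CFTR (6 to 45) and SCTR (7 to 83) were under the floor by their means. Of 10 leukocyte and Kupffer markers 5 were above the floor, all dim, with a summed signal of 357 to 616, and PTPRC, which defines leukocytes, was under it everywhere (3 to 36). Of endothelial markers 2 of 10 were above (summed signal 163 to 361), of stellate and fibroblast markers 8 of 10 (8684 to 11924, of which COL1A1 made up 7162 to 10500), of erythroid markers 2 of 3 (379 to 518) and of intestinal markers 4 of 10 (9497 to 11478). The intestinal phosphatase ALPI made up 9267 to 11247 of the intestinal sum. CDX1, CDX2, SI, MUC2, CDH17 and ISX of that list were under the floor by their means. These sums add signals of different probe sets, so only the arrays of 1 list can be set beside each other. The part of these cell types in the values of the hepatocyte genes was not tested.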
